A study of Homo sapiens with 42 samples.

Results

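The gene loci described here are those of 10 genes that WNT/beta-catenin signalling is known to switch on: AXIN2, LGR5, ASCL2, NKD1, RNF43, ZNRF3, TCF7, LEF1, NOTUM and SP5. They are 10 of 19974 protein-coding genes on chromosomes 1 to 22 and X of the RefSeq annotation of GRCh38.p14. A peak was assigned to a locus when its summit lay inside the gene or within 100 kb of either end. All 10 loci held peaks and passed the filter on low values, as did 19385 loci in all. The data were ATAC-seq peak lists, which mark stretches of DNA that a transposase can reach, from 42 samples. They came from 7 human cancer cell lines, all labelled as wild type in genotype. HCT116 is a line of colorectal adenocarcinoma and DU4475 of invasive breast carcinoma. The other 5 are 92-1, from uveal melanoma, A375, from melanoma, 22RV1, from prostate adenocarcinoma, MV411, from acute myeloid leukaemia, and RD, from rhabdomyosarcoma. Each line received DMSO, the solvent, or FHT-1015, a dual inhibitor of SMARCA4 and SMARCA2, for 4 h, with 3 biological replicates in each of the 14 groups. Each line is a single model of its tumour type.

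In the WNT pathway, a ligand bound to a Frizzled and LRP receptor pair stops the destruction complex, built on APC and AXIN proteins, from degrading beta-catenin. Beta-catenin then enters the nucleus and binds TCF and LEF proteins, which sit on short DNA words and activate target genes. Many of these targets feed back on the pathway. SMARCA4 and SMARCA2 are the ATPases of BAF complexes, which slide and evict nucleosomes. HCT116 is known for an activating mutation of CTNNB1, the beta-catenin gene, and DU4475 for a truncating mutation of APC, so both are called WNT-active here. The first comparison asked whether the target loci were more accessible in those lines than in the other 5 lines in DMSO. The second asked what FHT-1015 did to them in each line.

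The deposited lists held between 114499 and 433436 peaks. They were cut to the 50000 strongest peaks of each sample, so that a value is the number of those peaks in a locus. The lists were of 2 kinds. In HCT116, 92-1, 22RV1 and MV411 the peak names hold the word small and median peak widths were 192 to 240 bp, while in DU4475, RD and A375 the word is absent and widths were 273 to 429 bp. The lines of the second kind also held more summits per interval, so comparisons of lines are given within each kind as well. FHT-1015 replicates 2 and 3 of 92-1 had 2037 and 1412 strict peaks (−log10 q of at least 5), against 13760 or more in every sample of the other lines, and the fits that pool the lines were also run without 92-1. Strict peaks were also fewer with FHT-1015 than with DMSO in RD (13760 to 28354 against 41806 to 48752) and MV411 (52664 to 53585 against 105420 to 121774). The same held in 22RV1 and DU4475, while HCT116 and A375 overlapped. The cut therefore reached weaker peaks with FHT-1015 in RD, MV411, 22RV1 and DU4475. The part of this in the FHT-1015 comparisons was not tested. Of the lists of lineage markers, DU4475 had the highest count at 3 of 6 epithelial and breast genes (KRT8, KRT18 and EPCAM), with GATA3 at 0.67 peaks per sample, and HCT116 at 2 of 6 intestinal genes (CDX1 and CDH17, and 0 of 6 within 10 kb of the genes).

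Summed over the 10 loci, DU4475 stood above every other line in DMSO. Its 3 DMSO samples held 197 to 212 peaks, a mean of 207.0 ± 8.66 (SD, n = 3). The next line was RD with 95.0 ± 2.65, followed by HCT116 with 82.0 ± 6.0 and A375 with 75.7 ± 8.33. 22RV1 held 66.7 ± 7.37, MV411 66.7 ± 3.79 and 92-1 54.7 ± 2.52. The 3 RD samples (93 to 98) lay above the 3 of HCT116 (76 to 88), while HCT116 overlapped with A375, A375 with 22RV1 and 22RV1 with MV411. Set against the mean of all gene loci in the same sample, the 10 loci averaged 2.11 times as many peaks in DU4475, 1.12 times in HCT116, 1.11 times in MV411 and 0.927 to 1.02 times in the other 4 lines. On that scale HCT116 and MV411 could not be told apart.

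**Figure D1:**
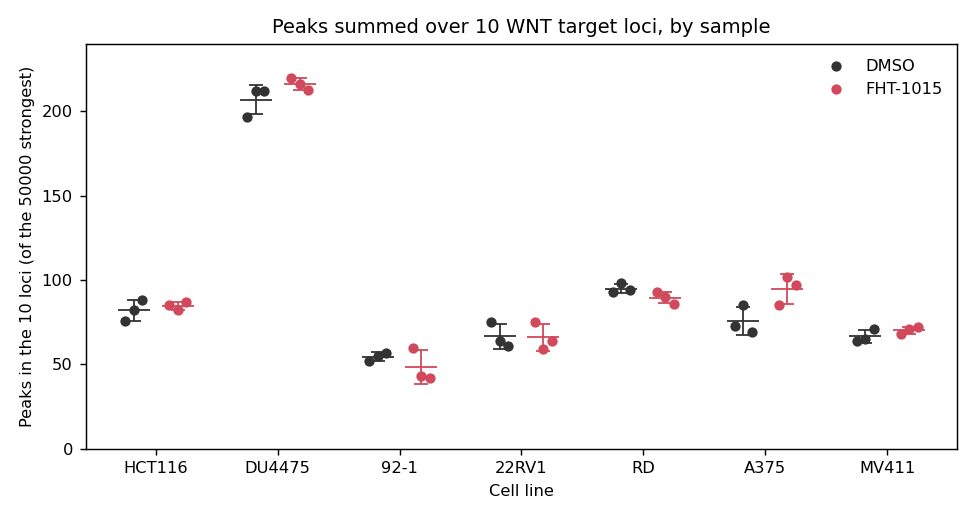
Number of the 50000 strongest peaks of each sample that lay in the 10 WNT target loci (vertical axis, peaks) by cell line (horizontal axis). Points are samples, bars the mean and SD of 3 replicates, DMSO in black and FHT-1015 in red; the DU4475 samples lie at 197 or more and all samples of other lines at 102 or fewer, whatever the treatment.

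Over all gene loci, no locus passed the comparison of the WNT-active lines with the others (limma on 1 mean per line, 0 of 19385 loci higher and 0 lower at an adjusted p of 0.05, a background of 0%). The lowest adjusted p was 0.497 over all loci and 0.767 among the 10. At an unadjusted p of 0.05, 3 of the 10 loci (AXIN2, ASCL2 and SP5) were higher, where 3.77% of all loci were higher and 1.49% lower. The median difference was 0.88 on the log2 scale (log2 of peaks plus 1) over the 10 loci and 0.20 over all loci, and 9 of the 10 were above 0, against 66.4% of all loci. The means of both WNT-active lines exceeded those of all 5 other lines at AXIN2, ASCL2, RNF43 and ZNRF3, 4 of 10 loci, against 4.41% of all loci.

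With the kind of list as a term in the fit, again 0 of 10 loci and 0 of 19385 passed, with a lowest adjusted p of 0.466 among the 10 (limma) and 5 of the 10 at an unadjusted p of 0.05, where 6.95% of all loci were higher and 2.33% lower. Within kinds, 1 line stood against 3 or against 2, and no test was made. HCT116 exceeded 92-1, 22RV1 and MV411 at 6 of 10 loci, where 35.1% of all loci did so, and the median difference was 0.48 against 0.23 over all loci. DU4475 exceeded RD and A375 at 9 of 10 loci, where 39.6% of all loci did so, and the median difference was 1.36 against 0.13. The excess in DU4475 was therefore present among lists of its own kind, and that in HCT116 was smaller.

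Individual samples separate these lines further. No locus of the 10 had all 6 samples of HCT116 and DU4475 above all 15 of the other lines, or all below, which 0.428% and 0.108% of all loci did. HCT116 alone lay above the 15 at 0 loci, where 1.13% of all loci did. The 3 DU4475 samples lay above all 18 samples of the other lines at 7 loci (ASCL2, NKD1, ZNRF3, TCF7, LEF1, NOTUM and SP5), where 10.9% of all loci did, and below them at 0, where 1.69% did. With 100000 peaks only AXIN2, ASCL2, TCF7 and SP5 were apart in the higher direction, where 6.83% of all loci were. With 20000 peaks NKD1 dropped out of the 7, where 12.7% of all loci were apart. In a 10 kb window AXIN2 took the place of NKD1, where 6.73% of all loci were apart. When summits of 1 interval were counted once, 3 of the 10 loci (ASCL2, TCF7 and LEF1) were still apart, where 0.791% of all loci were. Counted that way, DU4475 held 103.0 ± 3.00 intervals in the 10 loci, HCT116 77.0 ± 4.58 and the other lines 41.7 to 62.7 (n = 3 each). The order of HCT116 and RD thereby turned, as RD had 2.28 summits per interval and HCT116 1.06 in DMSO. The lists were cut by summits before intervals were merged, so a line with more summits per interval keeps fewer intervals. For that reason these counts cannot rank HCT116 against RD.

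**Figure D2:**
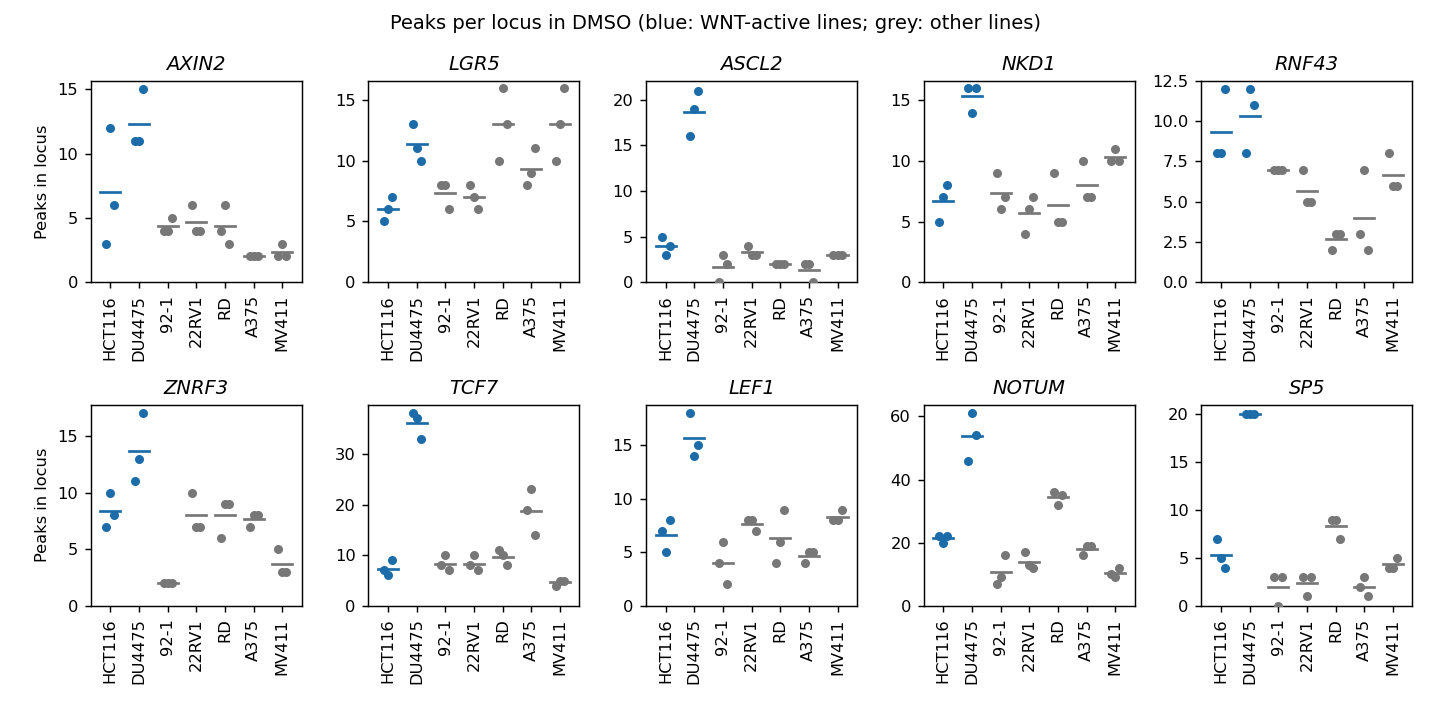
Peaks in each of the 10 loci in DMSO (vertical axis, number of the 50000 strongest peaks) for the 7 lines (horizontal axis). Points are samples, lines the mean of 3; the WNT-active lines HCT116 and DU4475 are blue. DU4475 is the highest line in 9 panels but not in that of LGR5, while HCT116 is second in the panels of AXIN2, ASCL2, RNF43 and ZNRF3.

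The negative feedback genes of the pathway came first. AXIN2, a scaffold of the destruction complex whose induction limits the signal, lies on chromosome 17 from 65528563 to 65561648. Its locus held 11, 11 and 15 peaks in the DU4475 DMSO samples, 3, 12 and 6 in HCT116 and 2 to 6 in the 15 samples of the other lines. DU4475 lay above all 15, while HCT116 overlapped with them and spanned the widest range of any line. The mean of the WNT-active lines was higher by 1.24 ± 0.45 on the log2 scale (SE, limma, adjusted p = 0.899). The exact permutation test over the 21 ways to choose 2 of 7 lines gave p = 0.0476, two-sided, the smallest these lines allow and not adjusted. In DU4475 the locus held 5.3 peaks per 100 kb, against 2.25 in the flanks 100 to 500 kb away, and in HCT116 3.0 against 2.62. A peak had its summit within 1 kb of the upper end of AXIN2 in every DMSO sample of every line. Peaks at the other gene ends were also placed by their summits. The best peak there ranked 2576 to 2926 in DU4475 and 5252 or worse in the DMSO samples of the other lines.

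NKD1, an inhibitor of Dishevelled, lies on chromosome 16 from 50548396 to 50649249. Its locus held 16, 14 and 16 peaks in DU4475, 5, 7 and 8 in HCT116 and 4 to 11 in the other lines. Only DU4475 stood apart, and HCT116 ranked 5 of 7 (exact permutation p = 0.2381, two-sided). The strongest of the regions found in DU4475 alone belongs to it and is described with the regions.

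RNF43 and its close relative ZNRF3 are membrane ubiquitin ligases that remove Frizzled receptors from the cell surface. The RNF43 locus (gene on chromosome 17, 58352500 to 58417534) held 8, 12 and 11 peaks in DU4475, 8, 8 and 12 in HCT116 and 2 to 8 in the other lines. The means of HCT116 and DU4475 were nearest to each other here, at 9.33 and 10.3. The difference was 0.86 ± 0.44 (limma, adjusted p = 0.899; exact permutation p = 0.0476, two-sided, the smallest possible). The ZNRF3 locus (chromosome 22, gene from 28883572 to 29057488) held 11, 13 and 17 peaks in DU4475, 7, 10 and 8 in HCT116 and 2 to 10 in the other lines. HCT116 with a mean of 8.33 could not be told from 22RV1 and RD with 8 each. The exact permutation p was 0.0952.

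NOTUM, a secreted enzyme that inactivates WNT ligands by removing their lipid, lies on chromosome 17 from 81952507 to 81961187. Its locus held 46, 61 and 54 peaks in DU4475, 22, 20 and 22 in HCT116, 36, 32 and 35 in RD and 7 to 19 in the other 4 lines. RD therefore stood above HCT116, and the exact permutation p was 0.0952. This locus holds 18 other protein-coding genes, the other loci 1 to 6, and its peaks can belong to any of them. At the upper end of NOTUM itself the lines were ordered otherwise. A peak lay within 1 kb of it in all 3 DMSO samples of DU4475, all 3 of HCT116, 1 of 3 in RD and 0 of 12 in the other 4 lines. The peak ranked 7393 to 9054 in DU4475 but 16258 to 46154 in HCT116, near the limit of 50000, and a listed peak in RD ranked 31427 to 58118, so the contrast between HCT116 and RD rests on that limit.

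Among the genes that act on the receiving side or mark stem cells, LGR5, the R-spondin receptor of intestinal stem cells (chromosome 12, 71439129 to 71586310), ran the other way. Its locus held 13, 11 and 10 peaks in DU4475, 5, 6 and 7 in HCT116, 10, 16 and 13 in RD, 10, 13 and 16 in MV411 and 6 to 11 in the rest. HCT116 was the lowest of the 7 lines and DU4475 ranked 3. The difference was −0.19 ± 0.45 (limma, adjusted p = 0.967; exact permutation p = 0.5714). No DMSO sample of HCT116, A375 or MV411 had the summit of a peak of the cut list within 1 kb of the lower end of LGR5. In 1 A375 DMSO sample a kept peak (rank 41049) with its summit farther away did reach a region there, chr12:71439527-71440026. That end was called in all 3 of DU4475, 22RV1 and RD and in 2 of 3 of 92-1. Weaker peaks below the cut were listed there in HCT116 (rank 156379) and A375 (ranks 51930 to 75630) in DMSO.

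ASCL2, a basic helix-loop-helix factor of intestinal stem cells, lies on chromosome 11 from 2268498 to 2270588. It showed the largest difference of the 10. The locus held 16, 19 and 21 peaks in DU4475, 5, 3 and 4 in HCT116 and 0 to 4 in the 15 samples of the other lines. HCT116 ranked second but overlapped with the others. The difference was 1.64 ± 0.51 (limma, adjusted p = 0.767; exact permutation p = 0.0476, two-sided, the smallest possible), and 0.65 ± 0.61 without DU4475. The excess was local: DU4475 held 9.2 peaks per 100 kb in the locus and 3.8 in the flanks, HCT116 2.0 and 2.7. A peak of the cut list lay within 1 kb of the upper end of ASCL2 in 3 of 3 DU4475 samples (median best rank 5322). The same held in 1 of 3 of 22RV1 and in no DMSO sample of the other 5 lines. Weaker peaks below the cut were listed there in DMSO samples of 92-1, A375 and MV411.

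The transcription factors of the group were led by DU4475 alone. TCF7 encodes TCF1, a DNA-binding partner of beta-catenin. Its locus (chromosome 5, gene from 134108218 to 134148210) held 38, 37 and 33 peaks in DU4475, 7, 6 and 9 in HCT116, 19, 23 and 14 in A375 and 4 to 11 in the other 4 lines. HCT116 ranked 6 of 7. DU4475 held 15 peaks per 100 kb in the locus against 3.2 in the flanks. LEF1, a further partner of beta-catenin (chromosome 4, 108047548 to 108168932), held 18, 14 and 15 peaks in DU4475, 7, 5 and 8 in HCT116 and 2 to 9 in the other lines. HCT116 ranked 4 of 7, and the exact permutation p was 0.2381 for TCF7 and 0.1429 for LEF1. SP5, a zinc-finger factor of the SP family (chromosome 2, 170715337 to 170718078), held 20, 20 and 20 peaks in DU4475, 7, 5 and 4 in HCT116, 9, 9 and 7 in RD and 0 to 5 in the other 4 lines. RD again held more summits than HCT116, with the same limit as at NOTUM. The difference of the WNT-active lines from the others was 1.42 ± 0.55 (limma, adjusted p = 0.899, and exact permutation p = 0.0952).

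RefSeq promoter windows (GRCh38.p14, 250 bases before to 50 after a start) were given for 4 of the 10 genes: RNF43, TCF7, LEF1 and SP5. The table held none for AXIN2, LGR5, ASCL2, NKD1, ZNRF3 and NOTUM. The windows of SP5 and TCF7 are shown because peaks covered them in DU4475 and in few or no other samples, and that of RNF43 because both WNT-active lines had it along with others. Capitals mark matches to the TCF and LEF words, which are CTTTGAA together with the word CTTTGAT and the word CTTTGTA and also the word CTTTGTT, searched on both strands.
SP5, chr2:170715087-170715386, plus strand: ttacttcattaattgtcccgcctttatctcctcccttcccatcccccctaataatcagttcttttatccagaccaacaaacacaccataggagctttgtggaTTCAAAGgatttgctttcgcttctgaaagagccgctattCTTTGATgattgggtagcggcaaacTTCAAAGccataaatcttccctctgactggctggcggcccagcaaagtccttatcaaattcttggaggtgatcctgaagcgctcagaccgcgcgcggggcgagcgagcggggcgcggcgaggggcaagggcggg
TCF7, chr5:134115363-134115662, plus strand: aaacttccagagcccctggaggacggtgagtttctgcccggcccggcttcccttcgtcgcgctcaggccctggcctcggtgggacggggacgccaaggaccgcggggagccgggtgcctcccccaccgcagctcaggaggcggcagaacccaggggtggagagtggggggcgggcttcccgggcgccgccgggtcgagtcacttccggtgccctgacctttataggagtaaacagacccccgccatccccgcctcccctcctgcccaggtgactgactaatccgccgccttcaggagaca
RNF43, chr17:58417485-58417784, minus strand: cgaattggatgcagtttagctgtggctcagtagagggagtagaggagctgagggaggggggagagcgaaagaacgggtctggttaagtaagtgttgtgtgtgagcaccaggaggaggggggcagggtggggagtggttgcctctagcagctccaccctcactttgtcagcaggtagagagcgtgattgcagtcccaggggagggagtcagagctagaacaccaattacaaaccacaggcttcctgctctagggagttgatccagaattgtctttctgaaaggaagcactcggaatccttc

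The SP5 window held 3 matches. Of 35116 RefSeq promoter windows of this length, 13.8% held at least 1 match and 0.179% held 3 or more. The shown windows of TCF7 and RNF43 held none, and the second TCF7 window held 1. A match says only that the letters are present. A peak of the strongest 50000 overlapped the SP5 window by at least 100 bp in all 6 DU4475 samples, DMSO and FHT-1015 alike, in 1 of 3 HCT116 DMSO samples and in no other sample. It overlapped the shown TCF7 window in all 6 DU4475 samples, at rank 619 or better in DMSO and 629 or better with FHT-1015, and in no other sample. This holds for the window at an overlap of 100 bp, and not for the region at its edge, chr5:134114897-134115396. That region was also called in all 3 DMSO samples of RD and of A375 (median ranks 26455 and 29518). With FHT-1015 it was called in 2 of 3 samples of A375. Beside the SP5 window, the region chr2:170714384-170714883 had the same DU4475 median rank in DMSO, 12939, as the region over the window. It was called in 7 DMSO and 10 FHT-1015 samples. Among them were 2 of 3 HCT116 DMSO samples and all 3 FHT-1015 samples of 22RV1 and of MV411. The RNF43 window was covered in all 12 samples of HCT116 and DU4475, all 6 of 22RV1, 5 of 6 in 92-1, 3 of 6 in A375, 2 of 6 in MV411 and 0 of 6 in RD. The LEF1 window was covered in no sample. For scale, 31.0% to 41.9% of all promoter windows were covered in a sample of the lines other than 92-1, and 221 of 34781 windows, 0.635%, were covered in all 3 DU4475 DMSO samples and in no DMSO sample of another line.

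**Figure D3:**
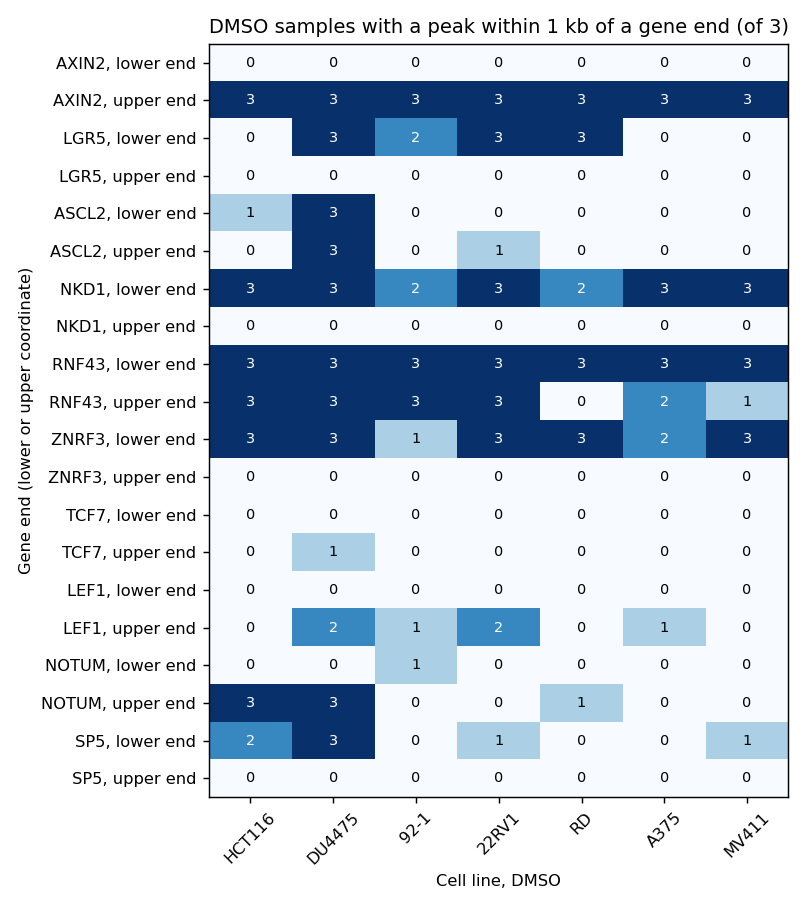
Number of DMSO samples, of 3 per line, with a summit of the 50000 strongest peaks within 1 kb of each end of the 10 genes (rows, lower and upper coordinate) in the 7 lines (columns), where darker is more. The upper end of NOTUM is at 3 in HCT116 and DU4475 and at 1 or 0 elsewhere, ASCL2 is at 3 only in DU4475, and the upper end of AXIN2 is at 3 in all lines.

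Called regions of 500 bp gave the same picture at finer scale. The 10 loci contained 593 of 469364 regions. In DU4475, 128 member regions were called in all 3 DMSO samples and 34 of them, 26.6%, in no DMSO sample of another line, against 13.2% of such regions over the genome. They lay in the loci of ASCL2 (6), TCF7 (5), NOTUM (5), SP5 (5), NKD1 (4), LEF1 (4), AXIN2 (3) and ZNRF3 (2), with 0 at LGR5 and RNF43, and adjacent regions can be covered by the same interval. In 4 of the 34 the DU4475 median rank was exactly that of a region of the locus that was also called in another line. This count misses regions that share an interval in only some of the DU4475 samples. The strongest was 0.88 kb from the lower end of NKD1, at chr16:50547269-50547768, with a median rank of 3170. It shares that rank with the adjoining region over the gene end, chr16:50548158-50548657, which was called in 19 DMSO samples of all 7 lines, so in DU4475 it belongs to a wider interval over an end that is open in every line. The next was 0.53 kb from the upper end of ASCL2, at chr11:2270866-2271365, with a median rank of 5322. A region beside it, chr11:2269815-2270314, was called in 2 of 3 DU4475 DMSO samples at a median rank of 5486.5. That region was also called in 1 of 3 DMSO samples of 22RV1 (rank 36148). After the ASCL2 region came chr5:134071028-134071527, with a median rank of 6116. It overlapped a promoter of VDAC1, a mitochondrial channel gene, and lay 36.9 kb from TCF7. Of the 34 regions, 10 lay inside the target gene.

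In HCT116, 39 member regions were called in all 3 DMSO samples and 2 of them, 5.13%, in no other line, against a background of 4.93%. They were inside LEF1 at chr4:108135458-108135957 (median rank 19151) and 33.1 kb from AXIN2 at chr17:65495222-65495721 (median rank 43198). Only 1 of the 33 regions called in all 6 samples of both WNT-active lines was absent from the 15 others, 3.03%, against 0.701% (75 of 10704) over the genome. It was at chr2:170815629-170816128, inside GAD1, the gene of a GABA-making enzyme, and 97.8 kb from SP5. Peaks ranked below the strongest 50000 were listed there in DMSO samples of 92-1, 22RV1, RD and A375, and in none of MV411.

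The 5 genes outside these loci whose peak numbers over the 14 group means were most like the sum of the 10 loci were LOC124905049 (Pearson r = 0.986), TNFRSF14 (0.986), ERBB2 (0.982), PANK4 (0.981) and YTHDF1 (0.980). Group means of a line share its list kind, and read depth is unknown. The 5 genes followed the high DU4475 value, for example 22.7 peaks at ERBB2 in DU4475, 7.33 in HCT116 and at most 8.33 in another line.

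In the WNT-active lines the summed level of the 10 loci was of similar size with FHT-1015 and DMSO. HCT116 held 84.7 ± 2.52 peaks with FHT-1015 against 82.0 ± 6.0 with DMSO, and DU4475 216.3 ± 3.51 against 207.0 ± 8.66 (SD, n = 3). The HCT116 groups overlapped, and those of DU4475 (213 to 220 and 197 to 212) did not. The DU4475 mean over all gene loci was apart as well, at 10.22 to 10.45 with FHT-1015 and 9.36 to 10.08 with DMSO. Against that mean, the 10 loci averaged 2.09 times as many peaks with FHT-1015 and 2.11 times with DMSO. No locus of the 10 passed in either line (limma on all 42 samples, lowest adjusted p of 1.00 in HCT116 and 0.664 in DU4475). Over the genome 0% of loci passed in HCT116, with 973 at an unadjusted p of 0.05 (2.73% higher, 2.29% lower) and none of them among the 10, and 0.0103% were higher and 0.0361% lower in DU4475. At an unadjusted p of 0.05, 1 of the 10 differed in DU4475, where 1.65% of all loci were higher and 2.57% lower. Fitted without 92-1, still 0 of the 10 passed in both, and 0.206% of all loci were higher and 0.103% lower in HCT116, 0.0361% and 0.212% in DU4475.

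The member that moved most in DU4475 was LGR5. It held 13, 11 and 10 peaks with DMSO and 8, 7 and 5 with FHT-1015, so the groups did not overlap (4.14% of all loci were apart in this direction). The difference was −0.70 ± 0.26 (limma, adjusted p = 0.664). TCF7 was apart in the other direction, at 38, 37 and 33 against 40, 40 and 39 peaks, as were 8.32% of all loci (0.14 ± 0.20, adjusted p = 1.00). In HCT116 no locus was apart in either direction, where 3.23% and 2.49% of all loci were. The largest difference there was at ASCL2, with 5, 3 and 4 peaks against 2, 3 and 2 (−0.58 ± 0.48, limma, adjusted p = 1.00).

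**Figure D4:**
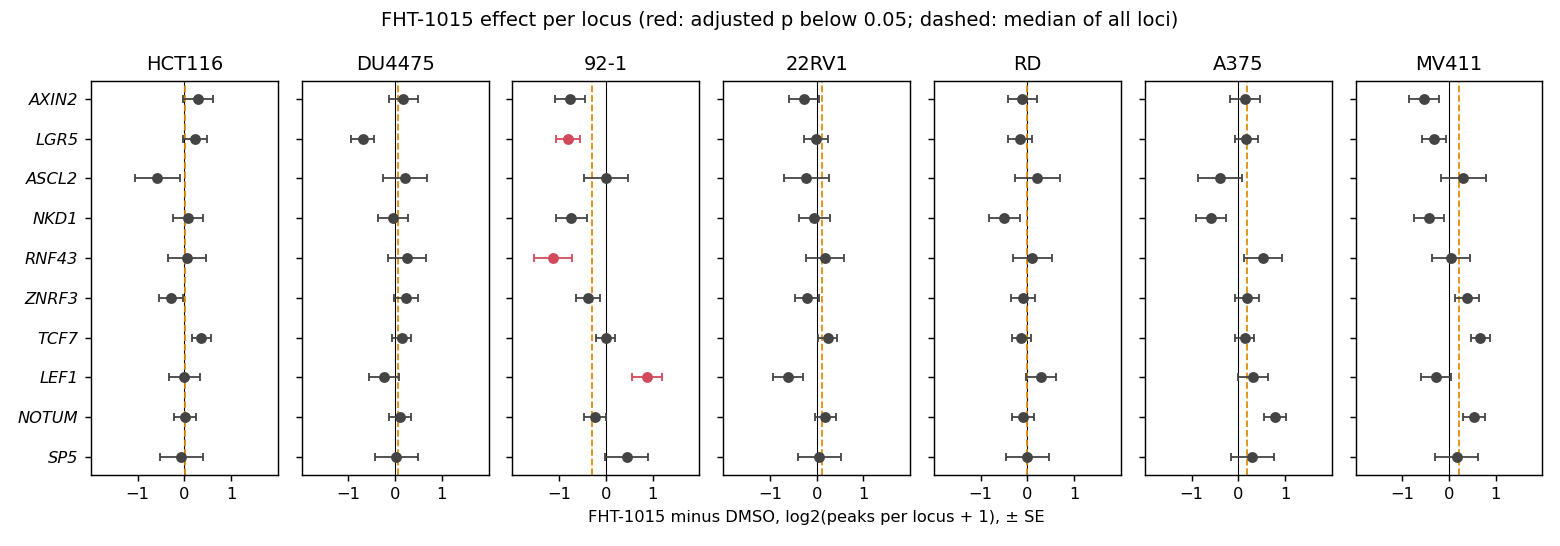
FHT-1015 minus DMSO in log2(peaks per locus + 1) for each of the 10 loci (rows) in each line (panels), with the SE of the limma fit; the dashed line is the median over all loci of that line and red marks an adjusted p below 0.05. Red points occur at LGR5, RNF43 and LEF1 in 92-1 only, the line with few strict peaks.

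In the other lines, loci passed only in 92-1. There LGR5 was called lower, at −0.81 ± 0.26 (8, 8 and 6 peaks with DMSO, 6, 4 and 2 with FHT-1015, adjusted p = 0.0140) and RNF43 at −1.14 ± 0.41 (7, 7 and 7 against 11, 1 and 1, adjusted p = 0.0293), while LEF1 was called higher by 0.88 ± 0.32 (4, 6 and 2 against 3, 10 and 14, adjusted p = 0.0314; limma). Over all loci 10.6% rose and 26.6% fell in this line. The extreme values sat in FHT-1015 replicates 2 and 3, of whose 50000 strongest peaks 4.07% and 2.82% were strict. Leaving out single 92-1 samples gave 0 to 7 passing loci. The directions did not hold at other list lengths: LEF1 was at −1.16 with 20000 peaks (adjusted p = 0.00161) and at −2.39 with strict peaks (adjusted p = 3.93e-05), LGR5 was at 0.44 with 100000 peaks and RNF43 at 0.48 with all deposited peaks (limma). No direction for these loci in 92-1 can be read from such counts, and the part of low library quality in these calls was not tested.

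In A375 and MV411, 0 of the 10 loci passed (1.47% of all loci were higher and 0.774% lower in A375, 2.95% and 0.16% in MV411), and some did when 92-1 was left out of the fit. NOTUM in A375 held 16, 19 and 19 peaks with DMSO and 26, 37 and 33 with FHT-1015, without overlap, as did 22.6% of all loci in this direction. The difference was 0.79 ± 0.24 (limma, adjusted p = 0.0663), and without 92-1 0.79 ± 0.15 (adjusted p = 0.00115), where 13.7% of all loci rose and 2.98% fell. With summits of 1 interval counted once it was 0.44 ± 0.23 (limma, adjusted p = 0.502). Summed over the 10 loci, A375 held 48.3 intervals with DMSO and 48.0 with FHT-1015, but 75.7 and 94.7 summits.

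In MV411, TCF7 held 4, 5 and 5 peaks with DMSO and 9, 8 and 7 with FHT-1015, and NOTUM 10, 9 and 12 against 16, 15 and 15. Both were apart, as were 25.2% of all loci. TCF7 differed by 0.67 ± 0.20 (limma, adjusted p = 0.0639; without 92-1 ± 0.18, adjusted p = 0.00866) and NOTUM by 0.54 ± 0.24 (adjusted p = 0.234; without 92-1 ± 0.15, adjusted p = 0.0140). Without 92-1, 16.7% of all loci rose and 0.898% fell, and the median locus of the line was higher by 0.21 in the fit of all samples. LEF1 was apart in the lower direction in MV411 (8, 8 and 9 against 6, 7 and 7, as were 4.82% of all loci) and in the higher direction in A375 (4, 5 and 5 against 6, 6 and 6). NKD1 was apart in the lower direction in A375 (10, 7 and 7 against 6, 4 and 5), as were 5.08% of all loci. In 22RV1 and RD, 0 of the 10 loci passed, where 0.0929% of loci were higher and 0.0155% lower in 22RV1, and 2.15% and 0.733% in RD. Without 92-1, again 0 of the 10 passed in both, where 5.77% of all loci were higher and 1.4% lower in 22RV1, and 4.17% and 2.62% in RD. At an unadjusted p of 0.05, 0 of the 10 differed in 22RV1 (7.61% of all loci higher, 3.26% lower) and 0 in RD (6.71% and 5.16%), against 1 in A375 (12.3% and 4.09%) and 2 in MV411 (14.9% and 1.57%).

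Averaged over the 7 lines, 0 of the 10 loci passed, where 9.8% of all loci rose and 4.37% fell (limma). The nearest were NKD1 at −0.32 ± 0.12 (adjusted p = 0.0726) and TCF7 at 0.20 ± 0.08 (adjusted p = 0.0742). At an unadjusted p of 0.05, 4 of the 10 were different, where 19% of all loci were higher and 9.95% lower. Without 92-1, NOTUM (0.26 ± 0.06, adjusted p = 0.00278) and TCF7 (0.23 ± 0.07, adjusted p = 0.0149) rose, 2 of 10 loci, while 25.2% of all loci rose and 5.06% fell. A share of 2 in 10 is near that background, and over the alternatives NOTUM ranged from −0.03 to 0.59 and TCF7 from −0.16 to 0.23. The FHT-1015 effect in the WNT-active lines minus that in the others passed at 0 of the 10 loci (lowest adjusted p = 0.595, at AXIN2, 0.54 ± 0.27) and at 1 locus over the genome (0% higher, 0.00516% lower). Without 92-1 it passed at 0 of the 10 loci, and 0.119% of all loci were higher and 0.738% lower. At an unadjusted p of 0.05, 1 of the 10 and 1618 of all loci differed (2.91% higher, 5.43% lower).

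Few member regions of the WNT-active lines were lost or gained. In HCT116, 0 of the 39 member regions called in 3 DMSO samples were lost, meaning called in no FHT-1015 sample, where 5.57% were over the genome, and 2 of the 39 called with FHT-1015 were gained, 5.13% against 2.12%. In DU4475, 4 of 128 were lost, 3.12% against 3.91%, and 1 of 128 was gained, 0.781% against 0.887%, while 118 regions in DU4475 and 25 in HCT116 were called in all 6 samples of the line. Of the 34 regions private to DU4475 in DMSO, 31 were called in all 3 of its FHT-1015 samples and 1, inside LEF1, was lost. In the other lines the lost share was 4 of 19 in 92-1 (21.1% against 33.8%), 7 of 42 in 22RV1 (16.7% against 19.0%), 5 of 57 in RD (8.77% against 9.79%), 1 of 49 in A375 (2.04% against 10.1%) and 6 of 50 in MV411 (12% against 14.4%). The gained share was 0 of 5 in 92-1 against 2.01%, 0 of 32 in 22RV1 against 2.13%, 1 of 45 in RD (2.22% against 0.822%), 1 of 43 in A375 (2.33% against 3.13%) and 8 of 44 in MV411 (18.2% against 8.63%). These counts are small and move with single samples: leaving out 1 sample of the line gave 4 to 16 lost regions in 92-1, 8 to 12 in 22RV1, 5 to 10 in RD, 4 to 9 in DU4475, 1 to 4 in A375 and 0 to 2 in HCT116, and 1 to 11 gained in A375 (11 without FHT-1015 replicate 1).

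**Figure D5:**
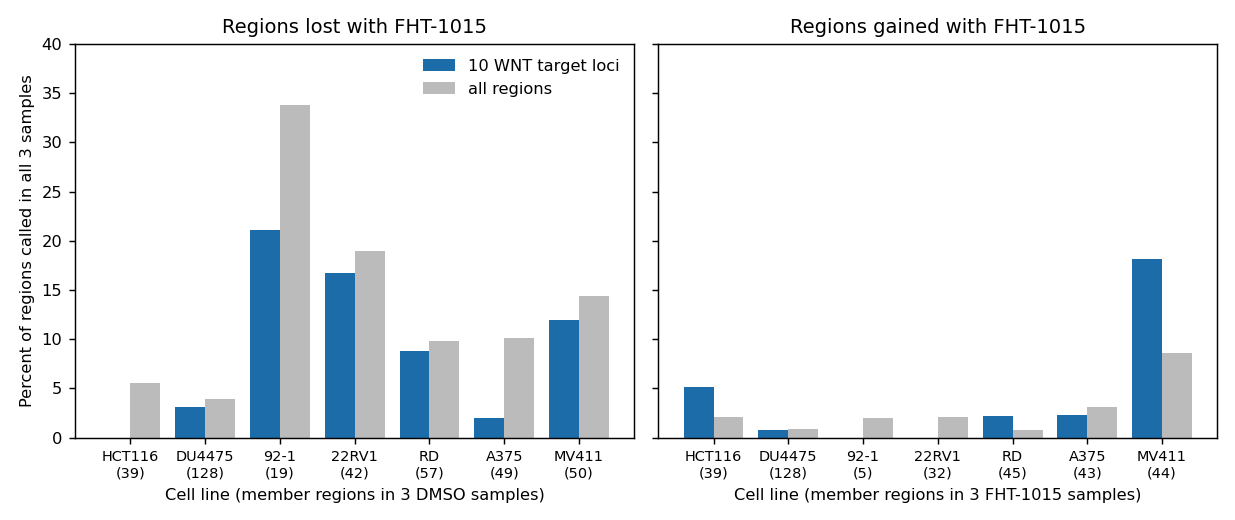
Percent of 500 bp regions lost (left, of those called in 3 DMSO samples) or gained (right, of those called in 3 FHT-1015 samples) in each line, for the 10 WNT target loci (blue) and for all regions of the genome (grey); the number of member regions is in brackets. The lost shares of the members lie at 0% in HCT116 and 3.12% in DU4475, beside 5.57% and 3.91% of all regions, and MV411 has the highest share of gained member regions, 18.2%. The 8 gained regions of MV411 become 0 to 5 with the other lists or an overlap of 250 bp.

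The regions that changed lay at named places. The strongest gained in HCT116 was the one next to the lower end of NKD1 that was private to DU4475 in DMSO: it was called in 0 of 3 HCT116 samples with DMSO, where no peak of any strength was listed, and in 3 of 3 with FHT-1015 at a median rank of 16527. The adjoining region over the gene end was called in 3 of 3 HCT116 samples with DMSO (median rank 20100) and in 2 of 3 with FHT-1015. In DU4475, the lost regions included chr12:71438936-71439435, over the lower end of LGR5. It was called in 3 DMSO samples at a median rank of 39484 and in no FHT-1015 sample, while a neighbouring region within 1 kb of that end, chr12:71439527-71440026, was called in all 6. In RD, the lost regions included chr5:134114897-134115396, inside TCF7 at the edge of its promoter window (median rank 26455), and chr17:81967716-81968215, 6.78 kb from NOTUM, both called in all 6 DU4475 samples. In MV411 the gained regions included chr17:65561026-65561525 at the upper end of AXIN2 (median rank 8325), which in DMSO had a weaker listed peak in all 3 samples. The adjoining region at that end, chr17:65561625-65562124, was called in all 3 MV411 samples of both treatments and had the same median rank with FHT-1015, so the gain lies at the edge of a peak present in both. The lost regions included one 3.27 kb from the upper end of LGR5 at chr12:71589328-71589827, called in no sample of any other line.

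The rest of the pathway was counted in the same fits. Of 48 genes of pathway components, among them ligands, Frizzled receptors and the destruction complex, 0 passed in the comparison of lines, in HCT116, DU4475 or 22RV1, or in the difference of effects. Of 21 other targets, 20 were tested and 0 passed in those comparisons. In RD, WNT5A, a ligand mostly tied to beta-catenin-independent signalling, rose by 2.21 ± 0.36 and PYGO1, a nuclear partner of the beta-catenin complex, fell by 1.90 ± 0.34, while the target SMOC2 rose by 2.64 ± 0.35 (limma, adjusted p = 0.000204, 0.000620 and 1.7e-05). In A375, DVL3, a Dishevelled gene, rose by 0.70 ± 0.18 (adjusted p = 0.0303) and the target SOX9 fell by 1.92 ± 0.38 (adjusted p = 0.00535). In MV411, LGR6 rose by 1.20 ± 0.28 (adjusted p = 0.0181) and the target CCND1, encoding cyclin D1, by 1.41 ± 0.37 (adjusted p = 0.0302). Most of these loci held few peaks, and the lists of RD and MV411 held fewer strict peaks with FHT-1015. Group means with DMSO and FHT-1015 were 0.33 and 5 at WNT5A, 5 and 0.67 at PYGO1 and 0 and 6 at SMOC2 in RD. In A375 they were 8.67 and 14.7 at DVL3 and 3 and 0 at SOX9. In MV411 they were 3.67 and 9.33 at LGR6 and 0.67 and 3.33 at CCND1. Averaged over the 7 lines, 6 components rose and 2 fell, led by WNT5A (0.75 ± 0.14, adjusted p = 0.000746) and PYGO1 (−0.56 ± 0.13, adjusted p = 0.00385). Of the other targets 3 rose and 2 fell, led by SOX9 (−0.83 ± 0.14, adjusted p = 0.000452; limma). These counts stand beside 9.8% of all loci higher and 4.37% lower. Without 92-1, 13 components and 4 other targets rose and 1 and 2 fell, where 25.2% of all loci rose and 5.06% fell. In 92-1, 8 components rose and 10 fell, and 1 other target rose and 6 fell, where 10.6% of all loci rose and 26.6% fell. Apart from 92-1, between 0 and 2 of the 48 components passed in any line. Fitted without 92-1, 1 component rose in HCT116 and 0 in DU4475, while 8 rose and 2 fell in A375 and 14 rose and 1 fell in MV411, where 13.7% and 16.7% of all loci rose.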

How the data were processed

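Each of the 42 samples had its own peak list in narrowPeak form, so the deposited lists were not pooled over replicates. Bowtie2, Picard, MACS2, HOMER, limma and the build hg38 are named, without roles or versions, in the submitters' processing notes. The lists as deposited give a fold enrichment ratio, a −log10 p-value and a −log10 q-value per peak, values set by the authors that served here to rank, filter and describe the peaks of 1 list at a time. The deposited score was not used. Read depth is unknown.

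Peaks on chromosomes 1 to 22 and X were ranked by −log10 p, and the strongest 50000 counted in each RefSeq protein-coding gene with 100 kb on each side. Loci with a mean of at least 1 peak were fitted with limma 3.58.1 (R 4.3.3) on log2(peaks + 1) with Benjamini-Hochberg adjustment over all loci at 0.05, on 7 line means or on all 42 samples with a shared spread. P-values over samples measure the spread between replicates. Calling a region took an overlap of 100 bp or more with a kept peak. The fit was tested on simulated data. At most 6.37% of intervals were identical between replicates, so all were used. Replicate numbers are not stated to pair samples.

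All 10 members were named, pathway genes only when they passed (at most 3 per comparison), and regions by best rank. The members and lists were chosen with earlier results of these data known.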

Additional observations from a re-analysis of the deposited data

Results flagged for a closer look

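At LEF1 the FHT-1015 samples lay on opposite sides of the DMSO samples in A375 and MV411, though neither difference passed (0.31 ± 0.32, adjusted p = 0.672, and −0.28 ± 0.32, adjusted p = 0.719; limma). In A375 all 3 FHT-1015 samples (6, 6 and 6 peaks) lay above the DMSO samples (4, 5 and 5), and in MV411 all 3 (6, 7 and 7) lay below (8, 8 and 9), as 22.6% and 4.82% of all loci did in those lines and directions. The effects differed by 0.595 on the log2 scale, with an SE of 0.458 (limma contrast of the 2 lines, adjusted p = 0.982), so the difference did not pass. It was looked at because the samples of each line did not overlap, among 10 loci and 7 lines.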

How the results depend on the processing

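The directions of the 3 loci called in 92-1 turned: LEF1 (0.884) was at −1.164 with 20000 peaks, −2.39 with strict, −0.283 with 100000 and −0.076 with all deposited peaks, LGR5 (−0.811) at 0.435 with 100000, and RNF43 (−1.138) at 0.484 with all deposited peaks. Elsewhere, 0 of the 10 loci passed in the comparison of lines, in HCT116, in DU4475 and in the difference of effects under every alternative tried. Leaving out 92-1, DU4475, a 10 kb window and the kind of list as a term were chosen after seeing the data. In 92-1 the count of 3 became 1 with 100000 peaks and 9 with strict peaks, and ranged from 0 to 7 when single samples were left out. With 20000 peaks 1 locus passed in 22RV1, 1 in MV411 and 2 over the 7 lines. With strict peaks 1 passed in RD and 3 over the lines. With no filter on low loci 1 passed in A375, 1 in MV411 and 1 over the lines, and with summits of an interval counted once 1 over the lines. Without 92-1, 1 passed in A375, 2 in MV411 and 2 over the lines, where leaving out single samples gave 0 to 3. The 1 region private to both WNT-active lines became 0 with 20000, strict or all deposited peaks, and 1 to 2 when single samples were left out. Lost regions, 27 summed over lines, became 5 with 20000 peaks, 49 with 100000, 58 with strict and 54 with all deposited peaks, and 27 to 39 without single samples. Gained regions, 13, became 7 with 100000, 1 with strict, 8 with all deposited peaks and 5 with an overlap of 250 bp, and 13 to 23 without single samples, the 23 without A375 FHT-1015 replicate 1. The cause of these changes was not tested.

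The log2 ratio of summed peaks, WNT-active over other lines, was 1.01, 1.187 with 20000 peaks, 0.747 with 100000, 0.547 with all deposited peaks, 1.23 in a 50 kb and 1.335 in a 10 kb window, 0.773 with summits of an interval counted once and 0.193 without DU4475. That of FHT-1015 over DMSO was 0.034, and −0.164 in a 10 kb window. Between lines, NKD1 (−0.13) and TCF7 (−0.27) were below 0 without DU4475, and LGR5 turned to 0.19 in a 10 kb window. With the replicate number as a block, 0 of the 10 loci passed in 6 lines and 3 in 92-1, as without it. Same-numbered samples did not pair (correlations of −0.066 to 0.14 over 21 pairs, 8 samples nearest to their own number). Ranks near the limit of 50000 peaks decide single calls, and read depth is unknown.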
